A study of Mus musculus with 8 samples.

Results

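The SOX transcription factor genes described here were measured in E14 mouse embryonic stem (ES) cells, left untreated or treated with retinoic acid (RA). They are the 10 genes *Sox1*, *Sox3*, *Sox4*, *Sox5*, *Sox6*, *Sox8*, *Sox9*, *Sox11*, *Sox15* and *Sox21*, chosen as family members known from neural cells, neural crest, cartilage and other tissues rather than from pluripotency or endoderm. Every probe of the array that carried one of these names and was no control was taken, which gave 17 probes of 55681, or 10 names of 36406. The cells are E14Tg2A.4, an established mouse ES cell line, for which the labels name no transgene or deletion in either condition. In the treated cultures all-trans RA was given at 1 µM for 3 days in medium lacking leukemia inhibitory factor (LIF), a cytokine that holds ES cells in self-renewal. The study describes the untreated cells as self-renewing, so the effect of RA and that of LIF withdrawal cannot be told apart. RNA of 4 biological replicates per condition was hybridized to 8 Agilent 1-colour arrays, whose spots each bind 1 kind of labelled transcript from a single RNA sample. Each replicate is a whole culture, in which fewer cells that make a transcript and less transcript per cell cannot be told apart.

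SOX proteins bind DNA through an HMG box, a domain that sits in the minor groove of the double helix and bends it. The family is divided into groups by the similarity of this box, and members of 1 group often stand in for each other. SoxB1 proteins (*Sox1*, *Sox3*) keep neural progenitors dividing and the SoxB2 protein *Sox21* opposes them, SoxC proteins (*Sox4*, *Sox11*) act as strong activators in young neurons and in mesenchyme, SoxD proteins (*Sox5*, *Sox6*) lack an activation domain of their own and assist *Sox9* in cartilage, SoxE proteins (*Sox8*, *Sox9*) act in neural crest, cartilage, glia and testis, and *Sox15* is the single SoxG member. RA enters the nucleus and binds receptors that sit on DNA as pairs with RXR, and in the embryo it patterns the hindbrain, spinal cord and other tissues.

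Between 33629 and 37175 of the 59305 spots on an array that are not controls (56.7% to 62.7%) were well above background, and none was saturated. All 8 of the ES cell markers examined fell after RA, including *Pou5f1* and *Nanog*, and all 7 RA response genes rose, in the direction of both labels. Markers of other cell types moved as well. Markers of primitive endoderm rose for 8 of 8 genes, those of trophoblast for 5 of 5 and those of smooth muscle and fibroblast for 5 of 6. Their summed levels, as the log2 of the added intensities relative to the 75th percentile of the array, went from between 3.08 and 4.52 to between 5.86 and 6.26 for primitive endoderm, from between 3.28 and 4.30 to between 8.79 and 9.14 for trophoblast, and from between 1.35 and 1.96 to between 8.01 and 8.84 for smooth muscle and fibroblast. Of 7 mesoderm markers 1 rose and 2 were called lower, of which *Mixl1* was not well above background on any array. Among the protein-coding names on the array 19.7% were called higher and 23.4% lower, or 43.2% either way. The share called among the mesoderm markers was near the last of these. The part of any of these cell types in the changes of the Sox genes was not tested.

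After RA treatment 4 of the 10 genes rose, *Sox4*, *Sox6*, *Sox9* and *Sox11*, 3 fell, *Sox5*, *Sox8* and *Sox15*, and *Sox1*, *Sox3* and *Sox21* did not pass the test. A gene was called at an adjusted p (limma, Benjamini-Hochberg over all probes) under 0.05 and a fold change above 1.5, and was represented by its brightest probe. Over all names on the array 13.9% were called higher and 22.1% lower, and 36.1% either way. Among the 17841 names that are protein-coding RefSeq symbols the shares were 19.7% and 23.4%, and 43.2% either way. In the same 4 rising genes all RA arrays lay above all untreated arrays, as they did for 15.2% of all names and 21.9% of the protein-coding ones, and in *Sox5* and *Sox15* all RA arrays lay below, as for 25.2% and 27.2%. The median log2 fold change was 0.47 over the 10 genes and -0.28 over all names. Quantile normalization moved the median of all probes from -0.28 to -0.0026, and the share of higher calls among all calls from 37.4% to 48.4%, so the change of each gene's brightest probe is also given relative to this median. The 3 falls were not alike. That of *Sox15* held in every setting tried, while those of *Sox5* and *Sox8* rested on probes with particular limits, given with their values.

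**Figure D1:**
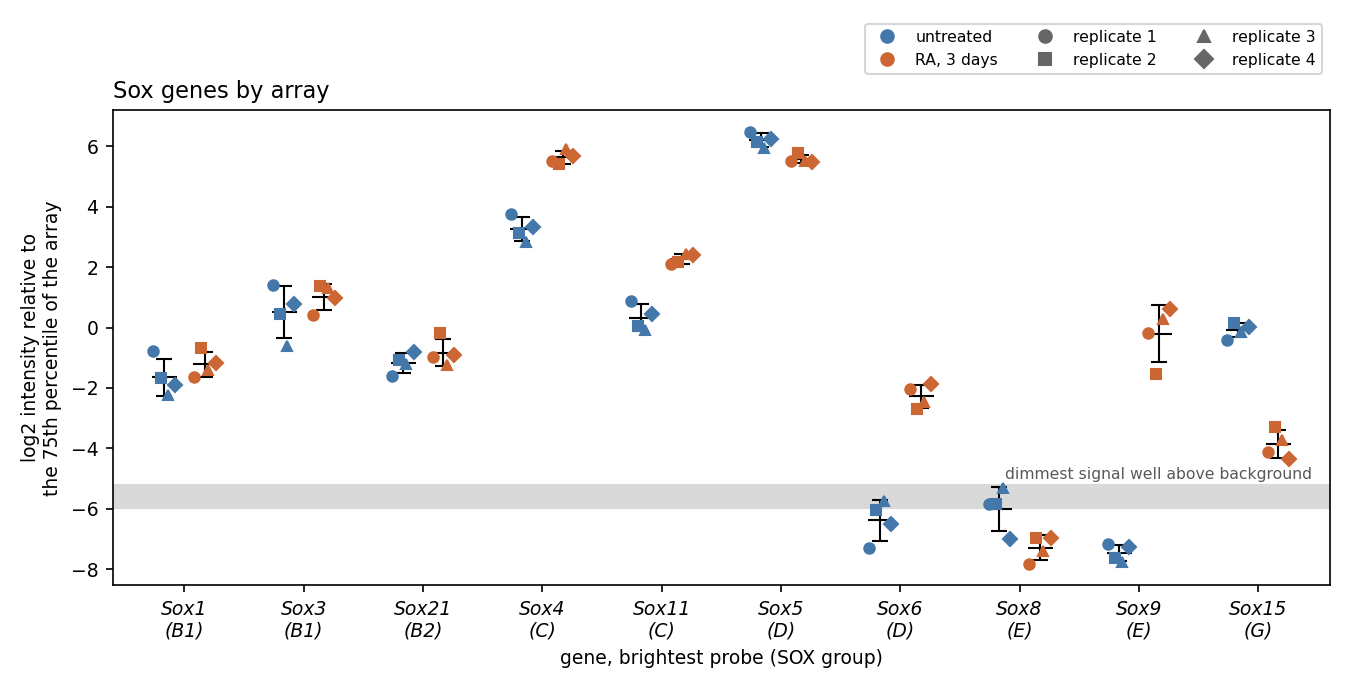
Log2 intensity of the brightest probe of each gene, relative to the 75th percentile of its array, for 4 untreated arrays (blue) and 4 arrays after 3 days of RA (orange). Marker shape gives the replicate number, black bars give mean ± SD, and the grey band spans the dimmest signal well above background on the 8 arrays. *Sox6* and *Sox9* leave the band or the space under it after RA, *Sox4* and *Sox11* rise from levels already above it, *Sox15* falls towards it and *Sox8* lies in or below it, and heights of different probes cannot be set against each other.

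A pair of probe sequences shows how alike the probes of different Sox genes were. One of the 3 *Sox4* probes and the single *Sox15* probe share the 13 bases in capitals, which no other of the 55681 probes holds. They are the longest run that any 2 of the 10 genes have in common over their probes of 60 bases.

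Sox4 probe, mm9 chr13:29044482-29044541, minus strand: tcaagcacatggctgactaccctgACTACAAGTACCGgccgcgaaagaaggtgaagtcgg

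Sox15 probe, mm9 chr11:69469212-69469271, plus strand: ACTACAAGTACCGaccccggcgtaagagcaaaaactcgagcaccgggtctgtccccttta

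In spite of the shared run the pair moved in opposite directions, by 2.59 ± 0.23 (SE) for the *Sox4* probe and by -3.78 ± 0.25 (SE) for the *Sox15* probe on the log2 scale. Between the other pairs of genes the longest shared run was 9 bases or fewer.

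The SoxB genes among those chosen, *Sox1*, *Sox3* and *Sox21*, were measured on all arrays and passed the test in neither direction. *Sox1*, a SoxB1 gene known as a marker of the neural plate, is read by a probe at mm9 chr8:12399496-12399555. It stood at -0.78, -1.67, -2.22 and -1.90 in untreated replicates 1 to 4 and at -1.63, -0.69, -1.40 and -1.17 in RA replicates 1 to 4, as log2 intensity relative to the 75th percentile. The conditions overlapped, since untreated replicate 1 lay above 3 of the 4 RA arrays. The difference was 0.42 on the log2 scale with a 95% interval from -0.32 to 1.17 (limma adjusted p = 0.307), or 0.70 relative to the median of all probes. In folds this interval runs from 0.800 to 2.24. A second *Sox1* probe nearer to the start of the transcript, also well above background on all 8 arrays, differed by -0.04 (limma adjusted p = 0.874), and the sign of that value changed with the scaling.

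*Sox3*, the SoxB1 gene of the X chromosome, which is also made in the epiblast before neural cells form, has its probe at mm9 chrX:58144564-58144623. The levels were 1.42, 0.44, -0.62 and 0.79 in the untreated replicates and 0.42, 1.36, 1.31 and 0.98 after RA. The untreated cultures spread widely (SD 0.86, n = 4), over a range of values that took in all 4 RA arrays. The log2 difference was 0.51 with a 95% interval from -0.43 to 1.45 (limma adjusted p = 0.329), or 0.79 relative to the median of all probes. Between same-numbered replicates the difference was below 0 in replicate 1 and 0.92, 1.93 and 0.18 in replicates 2, 3 and 4.

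*Sox21*, whose product represses genes that SoxB1 proteins activate, is read by 2 probes that gave opposite signs. At the brighter one, mm9 chr14:118633351-118633410, the levels were -1.59, -1.08, -1.21 and -0.82 in untreated and -0.96, -0.19, -1.26 and -0.91 in RA-treated cells. The difference there was 0.35 with a 95% interval from -0.24 to 0.93 (limma adjusted p = 0.288), or 0.63 relative to the median. At the other probe it was -0.24 with an interval from -0.65 to 0.17 (limma adjusted p = 0.296). Neither probe passed the test, and RA replicate 2 was the highest RA array at both.

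The SoxC genes among those chosen, *Sox4* and *Sox11*, both rose at every probe that reads them. *Sox4*, an activator in neuronal precursors and in many mesenchymal and epithelial tissues, stood at 3.78, 3.13, 2.82 and 3.32 in untreated cells and at 5.52, 5.42, 5.92 and 5.68 after RA at its brightest probe, mm9 chr13:29040826-29040885. The lowest RA array lay 1.64 above the highest untreated one. This is a log2 fold change of 2.38 ± 0.22 (SE) or 5.19-fold (limma adjusted p = 6.05e-05), and 2.66 relative to the median of all probes. The second probe gave 2.06 ± 0.21 (limma adjusted p = 9.9e-05), and the *Sox4* probe printed above went from -1.73, -0.97, -1.20 and -0.72 to 1.17, 1.30, 1.65 and 1.61, a change of 2.59 (limma adjusted p = 5.02e-05). All 3 *Sox4* probes, placed at bases 1010, 2636 and 4697 of their transcripts, thus read a rise. On each of the 2 slides, which held 2 arrays of each condition, the brightest probe rose by 2.30 and 2.45.

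*Sox11*, the SoxC gene best known from newly formed neurons, stood at 0.89, 0.06, -0.09 and 0.46 in untreated and at 2.11, 2.17, 2.43 and 2.42 in RA-treated cells at mm9 chr12:28020087-28020146. The RA cultures were close to each other (SD 0.16, n = 4) and all above the untreated ones (SD 0.44, n = 4). The rise was 1.95 ± 0.23 (SE) on the log2 scale, or 3.87-fold (limma adjusted p = 0.000196), and 2.23 relative to the median. The second probe of the gene went from -0.68, -1.41, -2.46 and -1.21 to 0.69, 0.73, 0.97 and 1.08 and rose by 2.31 ± 0.34 (limma adjusted p = 0.000747). Both of these SoxC genes thus had signal well above background on every untreated array, unlike *Sox6* and *Sox9*. Within the slides the brighter *Sox11* probe rose by 1.86 and 2.04.

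Among the SoxD genes *Sox6* rose from background. *Sox6*, which with *Sox5* is known to secure cartilage formation and to time the fate of neural and red blood cells, was not well above background on any untreated array, as 29.2% of all names and 21.7% of the protein-coding ones were not, and rose clear of it on all 4 RA arrays. Its probe at mm9 chr7:122615418-122615477 gave -7.29, -6.03, -5.73 and -6.49 in untreated cells and -2.03, -2.71, -2.48 and -1.89 after RA. In raw terms the processed intensity went from between 4.93 and 19.2 to between 146 and 286 units. Set against the dimmest signal well above background on each untreated array, or the probe's own signal where that was higher, the rise was at least 8.95-fold (fitted log2 difference 4.11 ± 0.34, limma adjusted p = 3.41e-05, or 4.39 relative to the median). The size of this rise depended on the background correction, with fitted values between 1.56 and 4.34 over the settings tried, each past the threshold. Values from normexp correction (1.56), from normexp with quantile normalization and from the deposited log2 table were under the log2 of that bound, 3.16.

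*Sox5* was called lower at a probe whose sequence sets it apart. Shown are the first 30 of its 60 bases, for the repeat that runs through it. The position that the array files give covers only 27 bases, so they place the probe on the genome in part.

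Sox5 probe, mm9 chr6:143776945-143776971, minus strand, as the array files place part of it: ggaggaggaggaagaggaggaggaggaaga

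All of its bases are purines, against at most 68.3% in the other 16 probes of the 10 genes. Its levels were 6.48, 6.13, 5.93 and 6.26 in untreated cells and 5.51, 5.79, 5.52 and 5.50 after RA, with no overlap. The difference was -0.62 ± 0.16 (SE), or 1.54-fold lower (limma adjusted p = 0.0151), and only -0.34 relative to the median of all probes. Its mean level was at the 97.8th percentile of the array. On this array 23 probes hold purines alone. Of these, 17 were above the 90th percentile of level, and all 23 were lower after RA, by log2 differences from -2.54 to -0.56 with a median of -1.03. The other 2 probes of *Sox5* were not well above background on any of the 8 arrays. At the one in its RefSeq transcript, mm9 chr6:143781520-143781579, the values were -6.14, -7.59, -6.45 and -7.14 in untreated and -6.72, -7.88, -8.03 and -6.61 in RA-treated cells. The fitted differences of these probes, -0.48 and -0.25, are no measure of a fold, since neither condition was well above background. Whether the bright probe reads *Sox5* RNA was not tested.

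Of the 10 genes, the SoxE members gave the largest fitted rise and a call on dim signal. *Sox9*, a regulator of cartilage, neural crest, glia and testis, is read by a probe at mm9 chr11:112648809-112648868 that is spotted 10 times on each array. In untreated cells none of the 10 spots was well above background on any array, and after RA all 10 were on every array. The mean over the spots was -7.18, -7.64, -7.76 and -7.27 in untreated replicates and -0.17, -1.53, 0.29 and 0.61 in RA replicates. Among the spots of 1 array the SD was between 0.075 and 0.081 on the RA arrays and between 0.088 and 0.324 on the untreated ones, which covers spots of 1 RNA sample and not the spread between cultures. The rise was at least 37.7-fold (fitted log2 difference 7.26 ± 0.42, limma adjusted p = 6.42e-06, or 7.54 relative to the median).

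The RA cultures differed among themselves in *Sox9* more than in any other gene of the 10 (SD 0.94, n = 4), with processed intensities of 1038, 331, 1184 and 1575 units. Within the slides the fitted rise was 7.69 and 6.84. The lower value is on the slide that holds RA replicate 2. Without that array the fitted rise was 7.70. As with *Sox6*, the normexp correction and the deposited log2 table gave smaller values, down to 3.52, which is under the log2 of the bound, 5.24, and still past the threshold.

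*Sox8*, a close relative of *Sox9* that acts in glia and Sertoli cells, was well above background on 1 of 4 untreated arrays and on no RA array. Its probe at mm9 chr17:25703094-25703153 gave -5.84, -5.85, -5.32 and -7.02 in untreated and -7.82, -6.97, -7.40 and -6.96 in RA-treated cells. The conditions overlapped, with untreated replicate 4 below 2 of the RA arrays. The fitted difference was -1.28 ± 0.36 (SE, limma adjusted p = 0.0217) or -1.0025 relative to the median, which passed both limits, but the untreated mean did not exceed the dimmest signal that could be read in RA-treated cells, so no fold is given. The call was lost under 5 other settings and when any of 4 arrays was left out. *Sox8* and *Sox9* thus differed in what the arrays could show of them.

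*Sox15*, which ES cells are known to make and whose product can bind DNA together with Oct4, was the one gene of the 10 with a fall that held throughout. The probe printed above gave -0.40, 0.16, -0.14 and 0.01 in untreated cells and -4.13, -3.29, -3.72 and -4.34 after RA, and each of these arrays read it well above background. The groups were separated by 2.90 on the log2 scale. The fall was -3.78 ± 0.25 (SE), or 13.7-fold with a 95% interval of the RA level from 0.0495 to 0.107 of the untreated level (limma adjusted p = 1.07e-05), and its log2 value was lower than those of all but 1.33% of probes. Relative to the median of all probes it was -3.50. The slides gave -3.97 and -3.59, and the 4 replicate numbers differences between -4.36 and -3.45. Over the other settings the fall lay between -3.78 and -2.72.

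**Figure D2:**
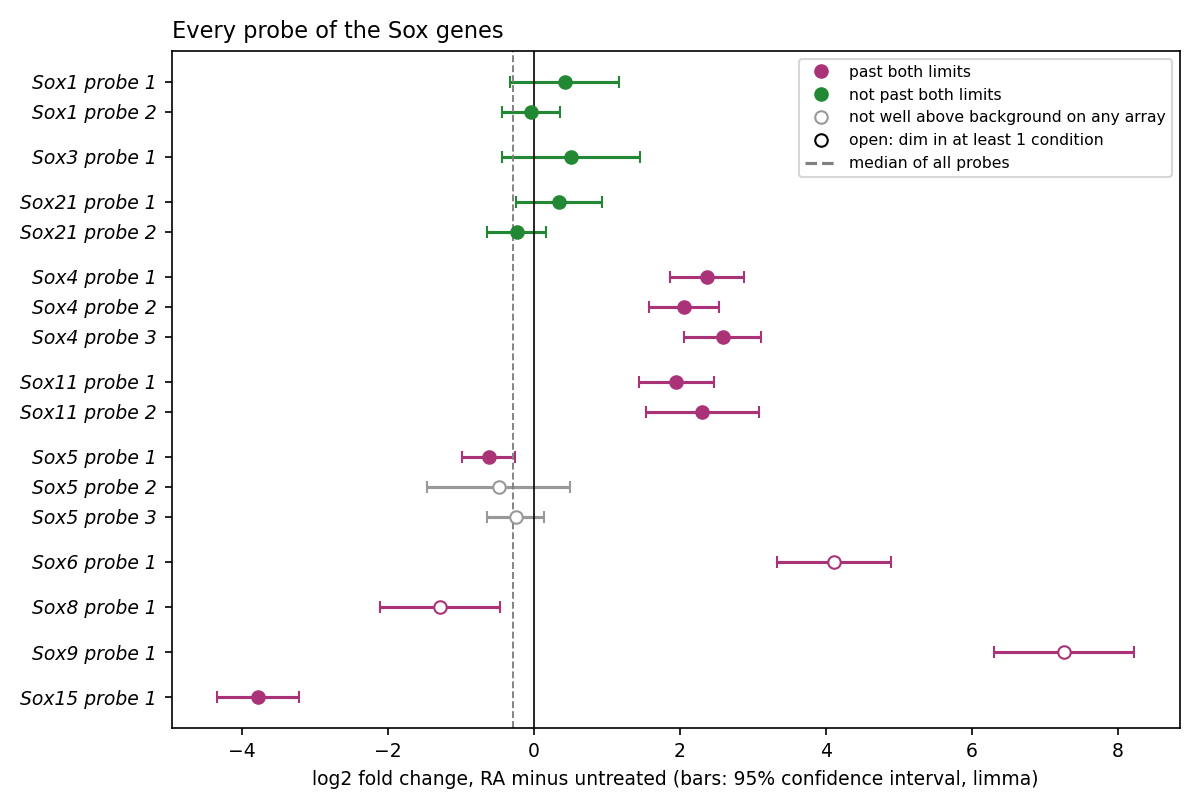
Log2 fold change of every probe of the 10 genes, RA minus untreated, with the 95% confidence interval from limma (n = 4 arrays per condition). Probe 1 is the brightest of its gene, purple marks probes past both limits, green those that are not, grey those not well above background on any array, open circles those dim in at least 1 condition, and the dashed line the median of all probes at -0.28. The probes of *Sox4* lie between 2.06 and 2.59 and those of *Sox11* at 1.95 and 2.31, while the probes of *Sox1* and of *Sox21* fall on both sides of 0.

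RA replicate 2 was the RA array nearest to the untreated mean for 5 of the 7 called genes, *Sox4*, *Sox5*, *Sox6*, *Sox9* and *Sox15*. The same array was nearest for 43.4% of the 10669 called names that were measured in both conditions, against 13.0%, 28.3% and 15.3% for RA replicates 1, 3 and 4. That set leaves out *Sox6*, *Sox8* and *Sox9*, each dim in 1 condition. Of the called genes it holds, RA replicate 2 was nearest for *Sox4*, *Sox5* and *Sox15*, and RA replicate 1 for *Sox11*. Without RA replicate 2 the 4 rises and the 3 falls were all called.

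Promoter sequences were at hand for 8 of the 10 genes, in 13 entries, as the 250 bases before a RefSeq transcript start (GRCm38.p6), *Sox3* and *Sox9* being the exceptions. Those of the 2 SoxC genes of the 10, which both rose, and that of *Sox15*, which fell, are shown in transcript direction. Capitals mark every match on either strand to CCAAT (the box that NF-Y binds), ACAAT and ACAAAG (core letters of SOX sites), AGGTCA (the half-site of nuclear receptors, RA receptors included), GGGCGG (the GC box of Sp1) and TATAAA.

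Sox4, chr13:28953700-28953949, minus strand: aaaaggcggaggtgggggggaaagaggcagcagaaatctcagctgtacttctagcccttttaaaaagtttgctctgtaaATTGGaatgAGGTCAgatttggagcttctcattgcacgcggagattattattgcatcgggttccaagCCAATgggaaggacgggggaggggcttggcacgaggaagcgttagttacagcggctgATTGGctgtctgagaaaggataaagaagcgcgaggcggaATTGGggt

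Sox11, chr12:27342719-27342968, minus strand: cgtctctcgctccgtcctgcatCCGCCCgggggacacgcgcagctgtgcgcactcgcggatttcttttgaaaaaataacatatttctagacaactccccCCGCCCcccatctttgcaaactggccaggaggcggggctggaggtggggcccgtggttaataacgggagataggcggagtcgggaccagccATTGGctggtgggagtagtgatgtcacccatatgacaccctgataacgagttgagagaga

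Sox15, chr11:69654787-69655036, plus strand: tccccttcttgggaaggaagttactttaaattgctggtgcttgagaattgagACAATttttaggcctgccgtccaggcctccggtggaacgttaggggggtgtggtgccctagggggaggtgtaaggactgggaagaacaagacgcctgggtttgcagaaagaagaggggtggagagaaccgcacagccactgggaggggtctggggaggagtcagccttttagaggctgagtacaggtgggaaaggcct

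The *Sox4* window holds CCAAT 4 times and AGGTCA 1 time, and the *Sox11* window holds CCAAT 1 time and GGGCGG 2 times. In the *Sox15* window the only match is 1 ACAAT. Of 32851 RefSeq promoters of the same length, 33.8% hold CCAAT, 27.7% ACAAT, 16.5% ACAAAG, 14% AGGTCA, 32.7% GGGCGG and 12.4% TATAAA. Matches of different motifs may share bases, and a match describes letters, not a bound site. The 2 SoxC windows are rich in CpG, with observed over expected ratios of 0.80 and 0.81, against 0.30 for *Sox15* and a median of 0.37 over all promoters. The ratio was 0.99 for *Sox1*, 0.64 for *Sox21*, 0.31 for *Sox5*, 0.68 for *Sox8* and between 0.14 and 0.74 for the 6 entries of *Sox6*.

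Of the 10 other Sox genes on the array 3 rose and 2 fell, a share near the 43.2% of protein-coding names called either way. *Sox2*, the SoxB1 gene of the pluripotency network, fell by 2.58 ± 0.19 (SE) on the log2 scale (limma adjusted p = 1.93e-05), while its SoxB1 relatives *Sox1* and *Sox3* did not pass the test. The SoxF genes *Sox17* and *Sox7*, both among the primitive endoderm markers counted above, rose by 3.05 ± 0.38 and 2.15 ± 0.47, and *Sox13*, the third SoxD gene, rose by 0.97 ± 0.13 (limma adjusted p = 0.00028, 0.00647 and 0.000388). The other gene called lower was *Sox30*, named after its value was seen, which was well above background on 2 untreated arrays and no RA array and was at least 2.10-fold lower (limma adjusted p = 0.011). This call was lost with quantile normalization, normexp, both together, the deposited log2 table and the test against 1.5-fold, and the filter on dim probes removed the gene. The median over these 10 was 0.15.

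Genes of the tissues in which these factors are known to act moved in mixed directions. Their counts stand against the 43.2% of protein-coding names that were called, 19.7% higher and 23.4% lower. Of 19 neural progenitor and neuron genes on the array 6 rose, 5 fell and 8 did not pass the test, with a median of -0.23 on the log2 scale, close to that of all names. *Dcx*, a microtubule protein of migrating neurons, rose at least 5.78-fold at 1 probe, while its other 2 probes were dim in both conditions. *Zic1*, a factor of the dorsal neural tube, rose by 4.14 ± 0.34 at its brightest probe and fell by 2.08 at another (limma adjusted p = 0.000311), so its direction is uncertain. *Neurod1*, a factor of differentiating neurons, was lower by at least 33.7-fold, and *Elavl3*, an RNA-binding protein of neurons, fell by 3.30 ± 0.18 (limma adjusted p of the brightest probes of these 4 genes at most 3.21e-05). With normexp correction *Dcx* rose by 1.39 and *Neurod1* fell by 3.03, both smaller than the log2 of their bounds (2.53 and -5.08) and past the threshold.

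Of 11 neural crest genes on the array 7 rose, 2 fell and 2 did not pass the test, and the median was 2.69. *Pax3*, which sets up the neural plate border, rose by 4.19 ± 0.35, and *Msx2*, a homeobox gene of that border, by 3.89 ± 0.26. *Foxd3*, which is made in both ES cells and early crest, fell by 5.92 ± 0.63 and was well above background on 2 of the 4 RA arrays, and *Ngfr*, the receptor often used to sort crest cells, fell by 3.35 ± 0.31 (limma adjusted p of these 4 genes at most 0.000121). With normexp correction the change of *Pax3* was 2.44 and that of *Foxd3* -4.16. Several genes of this list are also known from other mesenchyme, and 5 of the 6 markers of smooth muscle and fibroblast rose on the same arrays. Which cells made the transcripts of this list was not tested.

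Of 12 cartilage matrix genes, the kind that *Sox9* and the SoxD proteins are known to act on, 3 rose, 2 fell and 7 did not pass the test, with a median of 0.06, so the share called was near that of protein-coding names. *Hapln1*, the link protein of proteoglycans, rose at least 49.6-fold, and the collagen chain *Col11a1* by 4.65 ± 0.46. The collagen chain *Col9a2* fell by 2.91 ± 0.19 and *Acan*, the core protein of aggrecan, by 1.56 ± 0.20 (limma adjusted p of these 4 genes at most 0.000323). With normexp correction *Hapln1* rose by 3.98, under the log2 of its bound (5.63), *Col11a1* rose by 3.20 and *Acan* fell by 0.94, each past the threshold.

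**Figure D3:**
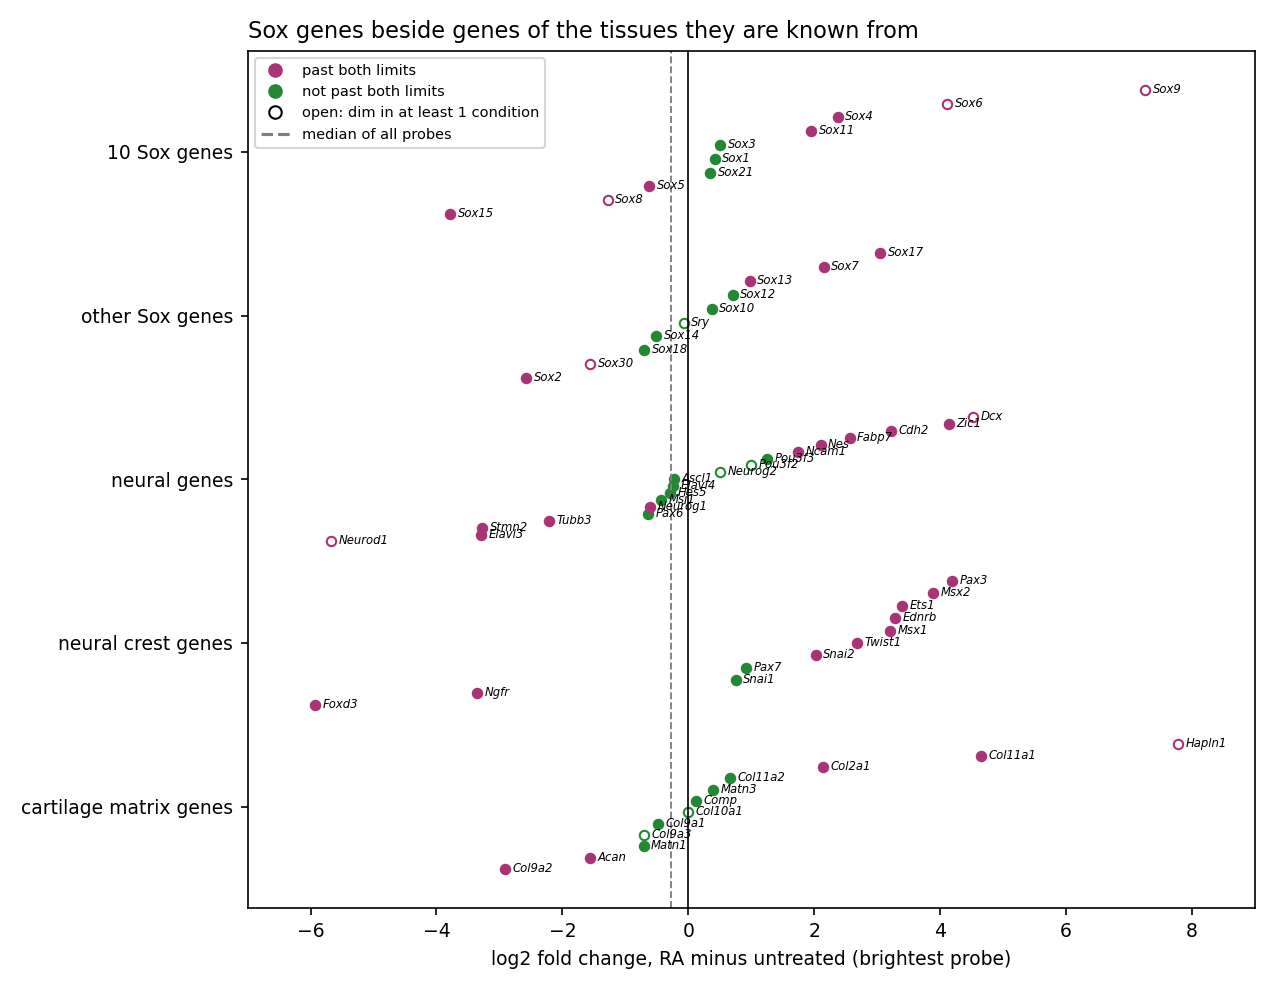
Log2 fold change, RA minus untreated, of the brightest probe of each gene on the array for the 10 Sox genes, the other Sox genes and the neural, neural crest and cartilage matrix genes. Purple marks genes past both limits, green those that are not, open circles genes dim in at least 1 condition, and the dashed line the median of all probes at -0.28. Neural crest genes lie mostly on the right with a median of 2.69, and the neural and cartilage genes spread to both sides.

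The processing left the 4 rises and the fall of *Sox15* in place and decided the calls of *Sox5* and *Sox8*. *Sox4*, *Sox6*, *Sox9* and *Sox11* were called higher under each of the scalings, background corrections, blocks, probe choices and left-out arrays tried, with 4 genes called each time. The number called lower was between 1 and 3. With the deposited log2 table, *Sox5* differed by -0.36, *Sox8* by -0.13 and *Sox15* by -2.72, and *Sox15* alone was called.

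**Figure D4:**
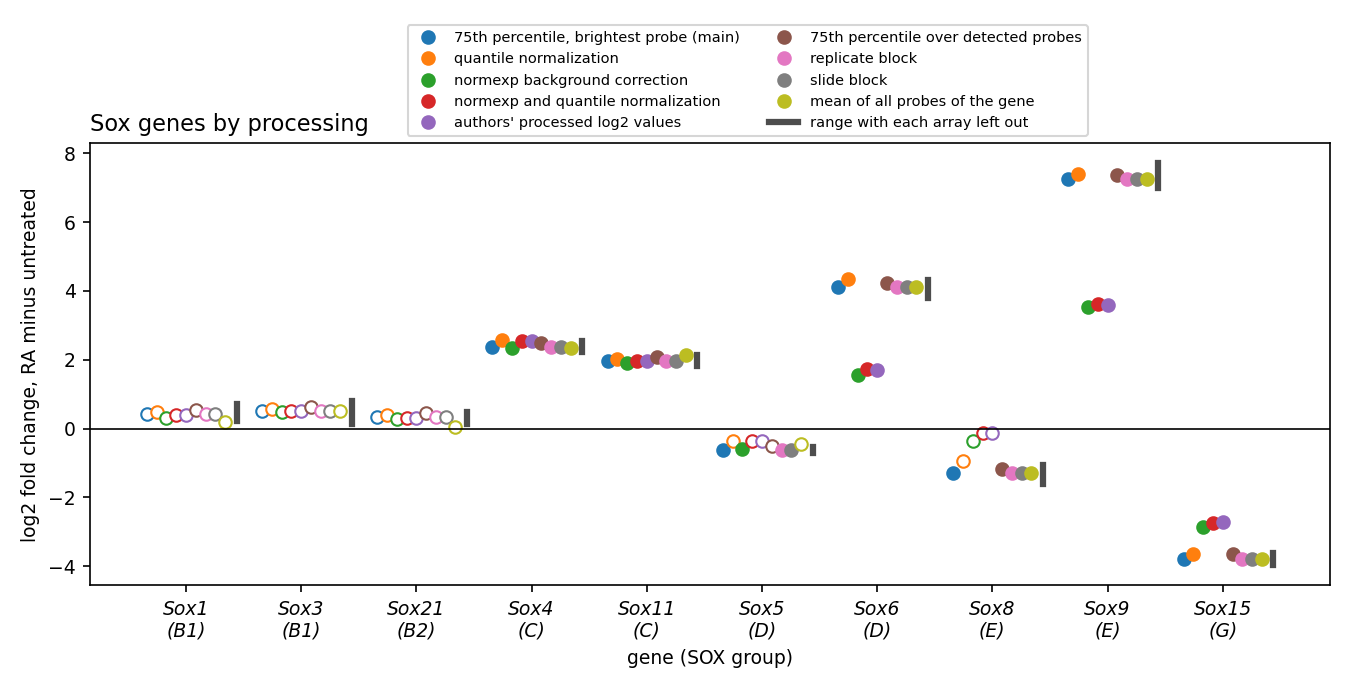
Log2 fold change of the 10 genes, RA minus untreated, under the reported processing and 8 others (colours), with filled circles where the gene passed both limits and open circles where it did not. Grey bars span the values obtained with each of the 8 arrays left out in turn. Only *Sox5* and *Sox8* change between filled and open, and the background correction moves *Sox6* and *Sox9* most, followed by *Sox8* and *Sox15*.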

How the data were processed

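RNA from 4 untreated and 4 RA-treated E14 ES cell cultures was labelled with Cy3 from oligo-dT and hybridized to 8 arrays. The authors deposited the output of Agilent Feature Extraction (version 10.7.3.1), in which the processed intensity of each spot is corrected for background but not normalized between arrays, the mean intensity and local background intensity are raw, and other columns mark spots well above background, saturated or outlying. They also deposited a table of log2 values with the same distribution on all arrays (median 6.76 on each), which correlated at 0.997 to 0.9996 with the log2 of the mean intensity. Their methods give the FDR and fold threshold and refer to an earlier report for the analysis, but state no normalization themselves.

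Processed intensities were put on the log2 scale in R (version 4.3.3), and each array's 75th percentile over its 59305 non-control spots was subtracted. The 3671 control spots and outlier spots (124 to 145 per array) were left out, and spots of a probe were averaged. No filter on dim probes was applied. Conditions were compared over all 55681 probes in limma (version 3.58.1, functions lmFit and eBayes), adjusting p by Benjamini-Hochberg, with calls at an adjusted p under 0.05 and a fold change above 1.5. Each gene is represented by the probe that was brightest on average over both conditions. Where a probe was well above background on no array of a condition, the fold is a bound. The steps were tested on simulated data.

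The 10 genes and all gene lists were chosen with earlier results of these data known. Named were the 10 genes, *Sox2* and up to 3 other called Sox genes with the largest change measured in both conditions, and up to 2 called genes that rose most and 2 that fell most in the neural, neural crest and cartilage lists. The array carried no probe named *Map2*, *Tfap2a*, *Tfap2b* or *Tfap2c*, which were in the lists. Probe positions are on mm9, promoters on GRCm38.p6, and genes are named as in the array's design.

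Replicate numbers come from the labels. Over 27491 probes that were well above background on each array, deviations of same-numbered arrays from their condition means correlated at 0.186, 0.189, 0.104 and 0.151 for replicates 1 to 4 (highest between other numbers 0.142), which meets the criterion set for pairing (each above 0.1), although neither labels nor methods name one. The reported fit has no replicate block, and the blocked fit is an alternative. The 2 slides held 2 arrays of each condition each. The number of arrays limits the precision. Alternatives were quantile normalization, normexp (offset 50), both, the authors' table, the percentile over detected probes, a filter on dim probes (well above background on at least 4 arrays), outlier spots kept, the mean over probes, replicate and slide blocks, a test against 1.5-fold, and each array left out.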

Additional observations from a re-analysis of the deposited data

Results flagged for a closer look

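Within 66 sets of 4 arrays (each probe of the 10 genes, and the brightest probe of *Sox2*, *Sox7*, *Sox13*, *Sox17* and the 12 named neural, neural crest and cartilage genes, in each condition) 3 held an array far from the other 3 by Dixon's criterion, where chance gives about 3.3. The *Sox5* repeat probe stood at 5.793 on RA replicate 2, against 5.497 to 5.516 on the other RA arrays. *Sox2* stood at 2.312 on RA replicate 2, against 1.633 to 1.671. *Neurod1* stood at -7.78 on RA replicate 4, against -5.943 to -5.625, and no RA array read this probe well above background. These are log2 intensities relative to the 75th percentile of the array.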

How the results depend on the processing

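The 4 genes called higher after RA remained 4 under all alternatives tried and each array left out. The number called lower went from 3 to 1 under quantile normalization, normexp with quantile normalization, the authors' table, the test against 1.5-fold and, chosen after seeing the data, when *Sox5* was taken at its other probe and only genes well above background on all 4 arrays of at least 1 condition were counted. It lay between 1 and 3 with each array left out, at 1 without untreated replicate 1. *Sox5* changed by -0.37 with quantile normalization, -0.35 with normexp and quantile normalization, -0.36 in the authors' table, -0.50 with the percentile over detected probes, -0.45 as the mean of its probes and, chosen after seeing the data, -0.48 at its other probe, which was dim on all arrays, and stayed at -0.62 in the test against 1.5-fold (limma adjusted p = 1), and was not called in any of these. With each array left out it lay between -0.71 and -0.53, and the call was lost without untreated replicate 1 (-0.53). *Sox8* changed by -0.94, -0.37, -0.13 and -0.13 with quantile normalization, normexp, normexp with quantile normalization and the authors' table, stayed at -1.28 in the test against 1.5-fold, and was not called in these. With each array left out it lay between -1.62 and -1.05, and the call was lost without untreated replicate 1 (-1.23), untreated replicate 2 (-1.23), RA replicate 1 (-1.10) or RA replicate 3 (-1.25). The second *Sox1* probe changed sign with quantile normalization (0.25), normexp and quantile normalization (0.10), the authors' table (0.10) and the percentile over detected probes (0.083), and lay between -0.18 and 0.035 with each array left out. The dim *Sox5* probe farthest 5' changed sign in the first 3 of these (0.021, 0.044 and 0.045). The cause was not tested. The replicate block (paired by replicate number) left *Sox9* at 7.26, *Sox15* at -3.78, and 4 genes called higher and 3 lower, and changed no call of the 10 genes. With this block the number of neural genes called went from 11 to 10 and that of cartilage matrix genes from 5 to 6. The numbers of neural crest genes (9) and of other Sox genes (5) stayed the same. The filter on dim probes removed *Sox8* and both dim *Sox5* probes, which then have no value. With each array left out the brightest probe of *Sox1* lay between 0.23 and 0.71. That of *Sox3* lay between 0.13 and 0.81 and that of *Sox21* between 0.13 and 0.49, and none of these was called. As the mean of its probes *Sox1* changed by 0.19 and *Sox21* by 0.055. Signal over background limits *Sox6*, *Sox8* and *Sox9*, whose levels in at least 1 condition could only be bounded.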
